A study of Saccharomyces cerevisiae with 16 samples.

Results

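The genes described here encode the nuclear subunits of the yeast respiratory chain and of the mitochondrial ATP synthase. They were taken from a list of 38 gene symbols, and each symbol matched 1 probe set of the Yeast Genome 2.0 array, so that 38 of the 5449 *S. cerevisiae* genes tested are described. The list holds 3 NADH dehydrogenases, 4 subunits of complex II, 9 of complex III, the cytochrome *c* gene *CYC1*, 8 subunits of complex IV, 5 subunits of the F1 part of the ATP synthase, 6 of its stalk and Fo part, and 2 inhibitors of its ATP hydrolysis. The rule that defines the list uses gene names and no measured value, although the list was drawn up with earlier results of these data known.

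The study asked how the transcription factors Mss11 and Flo8, known for their part in adhesion and filamentous growth, alter transcription in a strain that adheres (Σ1278b) and in one that does not (S288c). Gene expression was measured on 16 arrays, 2 for each of 8 conditions, which the labels call biological replicates. S288c was strain BY4742, labelled MATα with *his3*Δ1, *leu2*Δ0, *lys2*Δ0 and a deletion of *ura3* whose allele number differs between the arrays. Σ1278b was labelled MATα with *ura3-52* and with *hisG* replacements of *HIS3*, *LEU2* and *TRP1*. All transformants carried the multicopy plasmid YEpLac195, empty or with an insert (2μ-*MSS11* for *MSS11*), and were grown at 30° in 5 ml of synthetic medium with 2% glucose. One set of 4 arrays held S288c with the empty plasmid (wild type) and with 2μ-*MSS11*, and one of 6 held the Σ1278b wild type, Σ1278b with 2μ-*MSS11* and the *MSS11* deletion (*mss11*). A further set of 6 held another Σ1278b wild type (wild type b), and arrays whose titles call *FLO8* overexpressed in 1 condition and *flo8* deleted in the other. For these last conditions the plasmid labels contradict the titles (the overexpression arrays are labelled with the empty plasmid and the deletion arrays with *FLO8*), and they are named here by title. The labels give the early stationary phase, whereas the study's text speaks of mid-exponential growth and its methods give a range of optical density at harvest. The methods also speak of 3 cultures for each strain, while 2 arrays per condition were analysed here.

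Yeast has no proton-pumping complex I. Electrons from NADH enter the chain through single-subunit dehydrogenases on the inner (Ndi1) and outer (Nde1 and Nde2) face of the inner mitochondrial membrane, and those from succinate through complex II. Complex III passes them to cytochrome *c*, complex IV passes them on to oxygen, and the ATP synthase uses the proton gradient that complexes III and IV build. In *S. cerevisiae* many of these genes are known to be repressed by glucose and activated by the Hap complex, of which Hap4 is the regulated subunit, and *CYC1* is also activated by the haem-responsive factor Hap1. Some subunits have a second gene that is used when oxygen is low, namely *CYC7* for cytochrome *c*, *COX5B* for Cox5 and *AAC3* for the ADP/ATP carrier. The mitochondrially encoded subunits of complexes III and IV and of Fo were not analysed here.

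Several properties of the arrays bear on the values below. Lowest intensities were 3.55 or 3.56 in the S288c set, 3.36 or 3.37 in the first Σ1278b set and 3.11 or 3.12 in the set with wild type b, and the median log2 intensity of the tested probe sets was 10.36 to 10.38, 10.17 to 10.28 and 11.53 to 11.56, respectively. Levels are therefore given as deposited, as log2 intensity, and differences between sets were computed after each array was centred on its median. The S288c arrays with 2μ-*MSS11* stood apart from each other. Their replicate SD, as a root mean square over all tested probe sets, was 0.857, against 0.091 to 0.29 in the other 7 conditions. *MSS11* stood at 13.27 and 12.37 on these arrays and at 8.87 on both wild-type arrays, at 13.50 and 13.58 with 2μ-*MSS11* and at 7.50 and 8.34 in the wild type of Σ1278b, and at 3.01 and 3.03 in *mss11*. *FLO8* stood at 15.71 and 12.90 on the arrays titled *FLO8* overexpressed, at 11.06 and 11.16 on those titled *flo8* deleted and at 11.59 and 11.63 in wild type b. On the arrays titled *flo8* deleted, the adhesin gene *FLO11* had the lowest difference from wild type b of all probe sets tested (−8.29). The study names Flo8 as an activator of this gene. Whether the titles or the plasmid labels are right was not tested. All 7 a-specific genes tested were called higher in the S288c wild type than in the Σ1278b wild type, by between 2.93 (*STE6*) and 10.38 (*MFA1*, an a-pheromone gene), although its label is MATα. *MFA1* stood there at 13.20 and 13.31 and the α-agglutinin gene *SAG1*, an α-specific gene, at 14.88 and 15.03. *MFA1* was at 11.76 and 6.62 with 2μ-*MSS11* in S288c and between 2.63 and 2.81 on all Σ1278b arrays. *LEU2* was at 2.02 on all 4 S288c arrays and between 13.31 and 14.58 on all 12 Σ1278b arrays, which are labelled *leu2*. Whether mating type or marker genes had a part in the differences below was not tested.

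**Figure D1:**
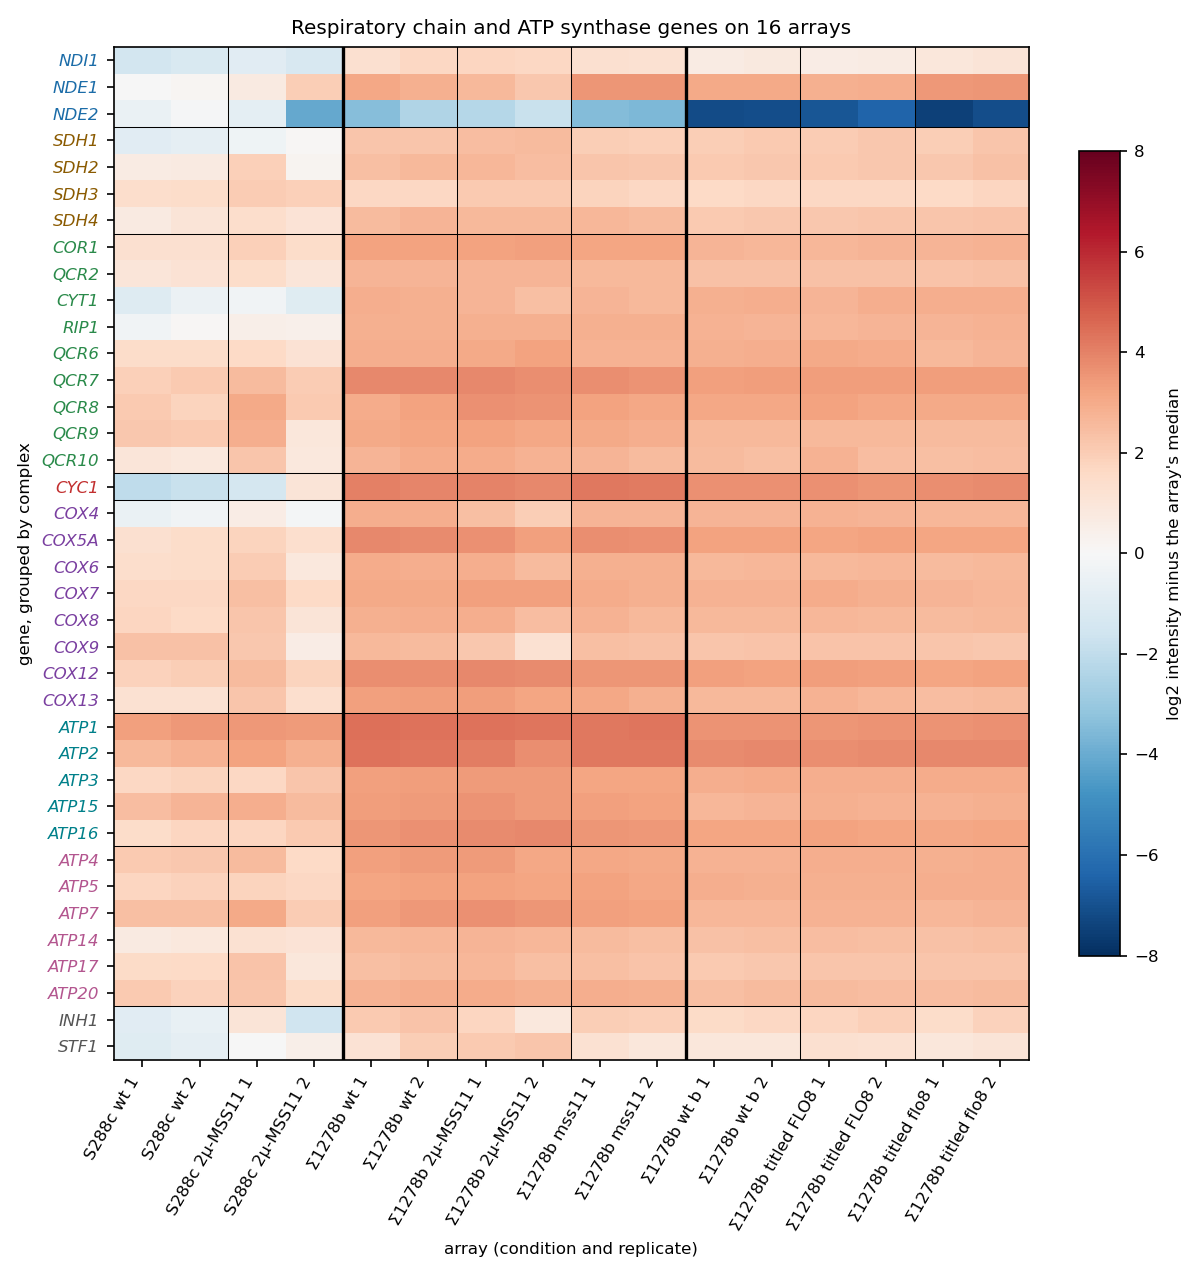
Colour gives the log2 intensity of each of the 38 genes (rows, grouped by complex) minus the median of the tested probe sets of that array, on each of the 16 arrays (columns, the thick lines separating the 3 sets of arrays). The 4 S288c columns are paler or bluer than the Σ1278b columns in most rows, with *NDE2* as an exception in the wild type.

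The largest differences among these genes lay between the wild types of the strains. Of the 38 genes, 35 were lower and 1 was higher in the S288c wild type than in the Σ1278b wild type by the limma test at an adjusted p under 0.05. Of all probe sets tested, 34.3% were lower and 28.1% higher in the same comparison. The median log2 difference (S288c minus Σ1278b) was −1.72 over the members and −0.11 over all probe sets tested. With wild type b as the Σ1278b control, a choice made after the data were seen, 31 members were lower and 1 higher, with a median of −1.30. The percentages above hold for the first Σ1278b wild type only, so these counts are not set against all probe sets. Both S288c wild-type arrays lay below all 4 Σ1278b wild-type arrays for 35 members and above them for 1, while 37.6% of all probe sets lay below and 34.0% above. All 4 S288c arrays lay below all 12 Σ1278b arrays for 29 members and above them for 0, against 13.4% and 12.1% of all probe sets. The RNA came from whole cultures, so that fewer cells expressing a gene and less RNA per cell cannot be told apart, and strain and set of arrays cannot be told apart either.

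*CYC1*, the main aerobic cytochrome *c*, differed most between the S288c wild type and the first Σ1278b wild type, while against wild type b *NDE2* differed by more (6.80). It stood at 8.32 and 8.57 in the S288c wild type, at 14.21 on both arrays of the Σ1278b wild type and at 15.20 on both of wild type b. The centred log2 difference was −5.89 (SE 0.56, a 59.4-fold lower intensity, adjusted p = 2.21e-05), the 8th lowest of the 5498 probe sets, and it was −5.57 against wild type b. No array of either S288c condition reached a Σ1278b array, the highest being replicate 2 with 2μ-*MSS11* at 11.40.

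The NADH dehydrogenases went in both directions. *NDI1*, which oxidises NADH of the matrix, stood at 8.90 and 9.19 in S288c and at 11.48 and 11.91 in Σ1278b (difference −2.78, SE 0.15, adjusted p = 4.92e-07). *NDE1*, which oxidises cytosolic NADH, stood at 10.35 and 10.53 in S288c and at 13.30 and 13.11 in Σ1278b (−2.89, SE 0.31, adjusted p = 4.78e-05). Its paralog *NDE2* was the only member that was higher in S288c. *NDE2* stood at 9.86 and 10.25 in S288c, at 6.80 and 7.84 in the Σ1278b wild type and at 4.41 and 4.48 in wild type b. The difference was 2.61 (SE 0.81, adjusted p = 0.018) and 6.80 against wild type b, and the call was lost on leaving out any of 3 single arrays (adjusted p up to 0.108).

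Complex II was lower as a whole, with *SDH3* hardly so. The flavoprotein gene *SDH1* stood at 9.43 and 9.68 in S288c and at 12.41 and 12.50 in Σ1278b (−3.03, SE 0.14, adjusted p = 1.64e-07). *SDH2*, the iron-sulfur subunit, and *SDH4*, a membrane anchor, differed by −1.80 and −1.75. The other anchor gene, *SDH3*, stood at 11.74 and 11.87 in S288c and at 11.85 and 11.95 in Σ1278b, a centred difference of −0.22 (SE 0.083, adjusted p = 0.0381). That call was lost as deposited (adjusted p = 0.32), with quantile normalization (adjusted p = 0.395), against wild type b (adjusted p = 0.05) and without any of 3 single arrays (adjusted p up to 0.185).

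In complex III, 8 of 9 genes were lower, by between −1.15 (*QCR8*) and −3.65 (*CYT1*). The genes of the redox subunits were the most different of the complex. *CYT1*, cytochrome *c*1, stood at 9.31 and 9.92 in S288c and at 13.14 and 13.13 in Σ1278b (SE 0.24, adjusted p = 1.63e-06), and *RIP1*, the Rieske iron-sulfur protein, stood at 10.11 and 10.47 against 13.08 and 13.14 (−2.95, SE 0.11, adjusted p = 2.15e-08). The core genes *COR1* and *QCR2* differed by −1.94 and −1.69. *QCR9*, a small subunit, did not pass the test at −0.97 (SE 0.47, adjusted p = 0.0944), although its S288c arrays (both 12.49) lay below those of Σ1278b (13.24 and 13.43).

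In complex IV, 7 of 8 genes were lower. *COX4*, a zinc-binding subunit, stood at 9.82 and 10.12 in S288c and at 13.13 and 13.20 in Σ1278b (−3.32, SE 0.22, adjusted p = 1.87e-06), and *COX5A*, the aerobic isoform of subunit V, at 11.67 and 11.85 against 14.07 and 14.08 (−2.44, SE 0.15, adjusted p = 9.73e-07). The small subunits *COX6*, *COX7*, *COX8*, *COX12* and *COX13* differed by between −1.21 (*COX8*) and −2.10 (*COX13*). *COX9* stood at 12.69 and 12.72 in S288c and at 12.81 and 12.78 in Σ1278b. Its difference of −0.21 (SE 0.42, adjusted p = 0.68) took the other sign against wild type b (0.09) and under quantile normalization (0.13).

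All 13 genes of the ATP synthase and its inhibitors were lower, with a median of −1.42. Within F1, differences ran from −0.78 (*ATP15*, the ε subunit) to −2.04 (*ATP16*, the δ subunit), with the catalytic β subunit *ATP2* at −1.60 and the α subunit *ATP1* at −1.003. *ATP1* stood at 13.66 and 13.82 in S288c and at 14.63 and 14.62 in Σ1278b, a 2.00-fold difference. In the stalk and Fo, the range was −0.86 (*ATP20*) to −1.87 (*ATP14*), and the call of *ATP17* (−0.91, adjusted p = 0.0379) was lost without any of the 4 arrays (adjusted p up to 0.13). The inhibitor genes differed more, with *INH1* at 9.46 and 9.77 in S288c and 12.28 and 12.57 in Σ1278b (−2.93, SE 0.64, adjusted p = 0.00321) and *STF1* at −2.41 (SE 0.25, adjusted p = 3.61e-05). Against wild type b the F1 and stalk differences were smaller. *ATP15*, *ATP7* and *ATP17* did not pass the test there, at −0.13, −0.26 and −0.58, and *ATP1* did so narrowly at −0.20 (adjusted p = 0.0494).

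**Figure D2:**
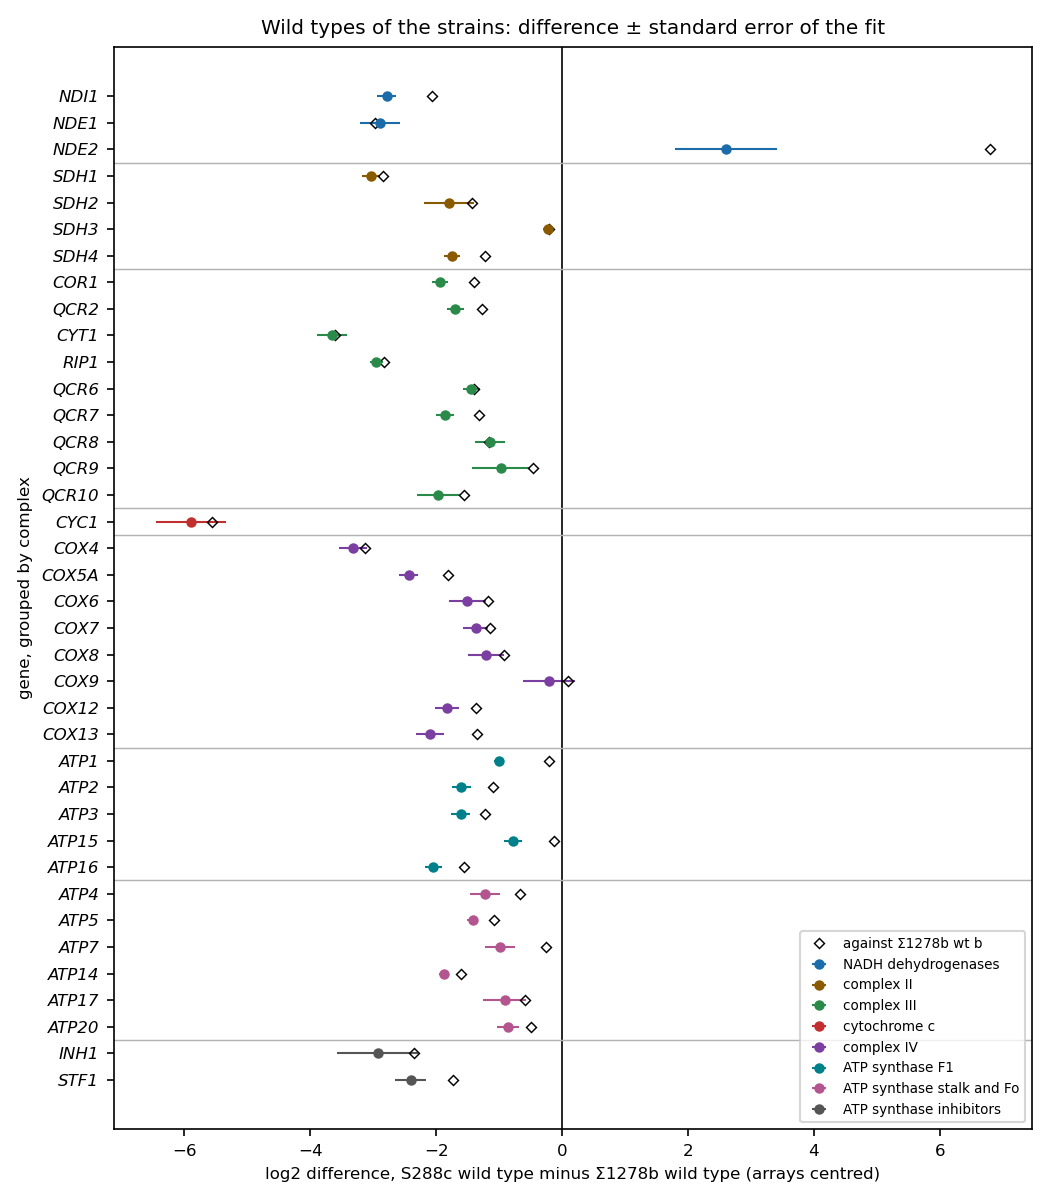
Filled points give the centred log2 difference of each member between the S288c and Σ1278b wild types with the standard error of the fit, coloured by complex, and open diamonds give the difference when wild type b is the control. All members but *NDE2* lie below 0 against the first wild type, *CYC1* farthest at −5.89, and *COX9* is the gene nearest to 0.

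The genes around these complexes differed in both directions. Of the 11 measured nuclear subunits and accessory genes outside the member list, 8 were lower and 1 was higher, the latter being *SHH4*, a homolog of *SDH4* (3.91, adjusted p = 0.000944). Of 24 genes for the assembly of complex IV, 18 were lower and 2 higher, with *COX23* at −4.81. Of 17 genes for the assembly of complexes III and II, 6 were lower and 3 higher, as were 6 and 3 of 12 genes for the assembly of the ATP synthase. Of 12 genes of the citrate cycle, 7 were lower and 1 higher, the malate dehydrogenase *MDH1* at −2.57 and the citrate synthase isoform *CIT3* at 3.51. Among 66 genes named for mitochondrial ribosomal proteins, 49 were lower and 2 higher (median −0.98), and of 148 probe sets for cytosolic ribosomal proteins 120 were lower and 3 higher (median −0.48). Of 20 genes repressed by glucose, however, 5 were lower and 9 higher (median 0.70), and of 20 stress genes 2 were lower and 5 higher (median 0.60). These lists move with the strain, and their part in the values of the members was not tested.

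The low-oxygen isoforms went in different directions. *COX5B* stood at 12.70 and 12.87 in the S288c wild type and at 7.29 and 8.16 in the Σ1278b wild type (4.93, SE 0.49, adjusted p = 2.81e-05), opposite to *COX5A*. *CYC7* was lower in S288c like *CYC1*, though by less, at 7.56 and 6.77 in S288c and 8.25 and 8.63 in Σ1278b (−1.40, SE 0.35, adjusted p = 0.00636, up to 0.0604 without single arrays), and *AAC3* did not pass the test (−1.12, SE 0.61, adjusted p = 0.134). Among the regulators, *HAP4* was lower in S288c, at 9.32 and 9.73 against 10.76 and 10.54 (−1.25, SE 0.16, adjusted p = 0.000132). *ROX1*, the repressor of low-oxygen genes, was lower at −0.62 (SE 0.21, adjusted p = 0.0269), and *MIG1*, the glucose repressor, at −0.82 (SE 0.32, adjusted p = 0.0451), and both calls were lost without single arrays (adjusted p up to 0.212 and 0.27). *HAP1* was higher in S288c, at 12.29 and 12.14 against 11.25 and 11.63 (0.65, SE 0.19, adjusted p = 0.015, up to 0.102 without single arrays). S288c is known to carry a transposon insertion in *HAP1*, and the intensity of its probe set does not tell whether an active protein was made. *PUF3*, whose RNA-binding protein acts on mRNAs of mitochondrial proteins, stood at 2.35 and 2.33 in S288c and at 6.12 and 6.30 in Σ1278b, a difference of −4.00 (adjusted p = 2.18e-06). Its S288c values lay at the low end of the arrays, near the level of the deleted *LEU2*, so the size of this difference is uncertain.

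**Figure D3:**
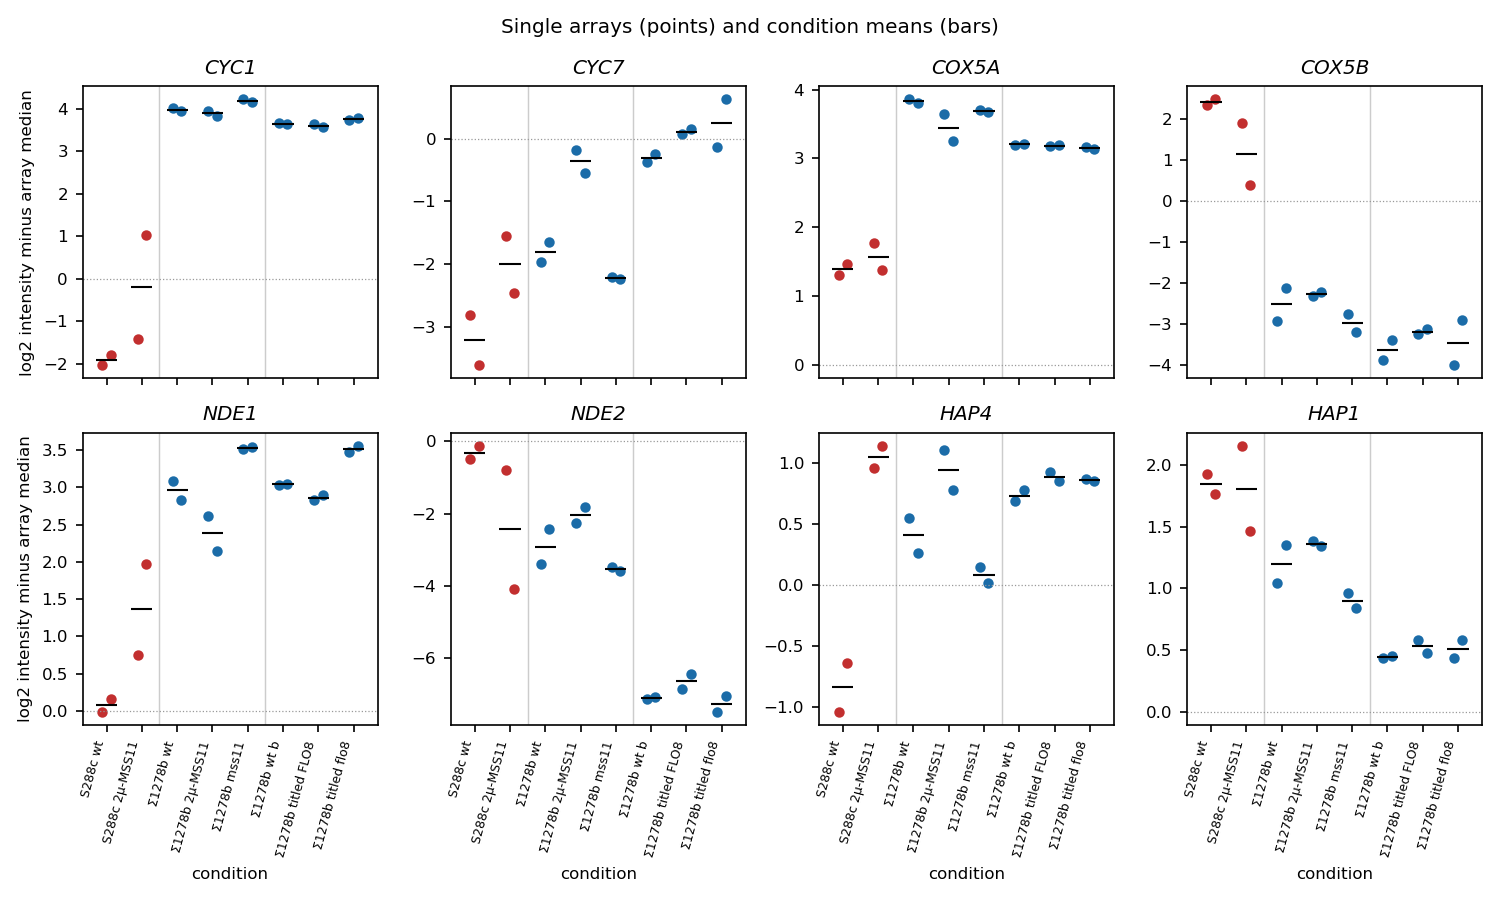
Each panel gives the log2 intensity of 1 gene minus the array median on single arrays (points, S288c red and Σ1278b blue) and the mean of each condition (bars). *CYC1*, *COX5A* and *NDE1* are lower and *COX5B* and *NDE2* higher in the S288c wild type than in Σ1278b, and the replicates of S288c with 2μ-*MSS11* lie far apart for *CYC1*, *NDE1* and *NDE2*.

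With 2μ-*MSS11* in S288c, the 2 arrays of the transformant gave different accounts of the respiratory genes. On replicate 1, *CYC1* stood at 8.94 and on replicate 2 at 11.40, against 8.32 and 8.57 in the wild type. For *NDE2* the values were 9.58 and 6.28 against 9.86 and 10.25, and for *INH1* 11.42 and 8.80 against 9.46 and 9.77. Of the 38 members, 32 were higher on replicate 1 than on replicate 2 (median gap 0.48), and 11 differed by more than 1 on the log2 scale. So did 29.3% of all probe sets, and the median absolute gap was 0.67 over the members and 0.59 over all probe sets. The wide gap was thus not particular to the members. In the other 7 conditions no more than 1 member differed by more than 1.

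By the fit that shares one spread among all conditions, 7 members were higher and 0 lower with 2μ-*MSS11*, while 7.26% of all probe sets were higher and 9.60% lower. These were *NDE1* (1.29, SE 0.31, adjusted p = 0.0239), *STF1* (1.07, SE 0.26, adjusted p = 0.025), *SDH1* (0.71, SE 0.145, adjusted p = 0.0126), *RIP1* (0.52, SE 0.11, adjusted p = 0.0123), *SDH3* (0.51, SE 0.081, adjusted p = 0.00428), *COR1* (0.42, SE 0.12, adjusted p = 0.0465) and *ATP14*, a stalk subunit (0.41, SE 0.084, adjusted p = 0.0128). Their arrays did not overlap with those of the wild type, which held in all for 13 members that were higher and 2 that were lower, beside 21.8% and 25.7% of all probe sets. *SDH3* stood at 12.37 and 12.25 against 11.74 and 11.87, *RIP1* at 10.85 and 10.77 against 10.11 and 10.47, and *ATP14* at 11.58 and 11.49 against 11.06 and 11.19. For these 3 genes both replicates gave nearly the same value, whereas *NDE1* stood at 11.11 and 12.35 against 10.35 and 10.53.

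No member passed the test when each condition was given a spread of its own (adjusted p from 0.665 for *NDE1* to 0.892 for *ATP14* among the 7 genes), a setting in which 16 of all probe sets were higher and 6 lower. The number of members called also changed with the array left out. It is not given, because such a fit keeps a single array in a condition. With any of the 4 arrays left out, the differences of the 7 genes stayed positive. They ran from 0.67 to 1.90 for *NDE1*, from 0.19 to 0.65 for *COR1* and from 0.45 to 0.57 for *SDH3*. Other members changed sign, such as *SDH2* (−0.46 to 1.23) and *INH1* (−0.82 to 1.80). The fit behind the 7 calls assumes an equal spread in all conditions, whereas the replicate SD of the transformant was 0.857 over all probe sets.

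Over all 38 members, 30 values were positive and 8 negative, with a median of 0.28 (−0.01 over all probe sets). Medians were 0.45 in complex II, 0.30 in complex III, 0.22 in complex IV, 0.21 in F1 and −0.01 in the stalk and Fo. Without replicate 1 the median over the members turned negative (−0.03), and without replicate 2 it was 0.54. The median level of the members was 12.29 on replicate 1 and 11.51 on replicate 2, against 11.77 and 11.85 in the wild type, so that the arrays lay on either side of it. The same held for complex II (12.02 and 11.03 against 11.07 and 11.24), complex III (12.30 and 11.35 against 11.62 and 11.68) and complex IV (12.52 and 11.57 against 11.91 on both). The lowest were *NDE2* (−2.12, SE 0.82, adjusted p = 0.0967) and *COX9* (−0.99, SE 0.42, adjusted p = 0.117), and the highest was *CYC1* (1.72, SE 0.57, adjusted p = 0.065). In complex III, *QCR10* had the largest (0.62) and *QCR9* the lowest value (−0.21), and in complex IV *COX4* had the largest (0.61). Within F1, differences ran from 0.06 (*ATP1*) to 0.34 (*ATP2*), and *ATP20* was the lowest of the stalk and Fo genes at −0.10. On both transformant arrays most members stayed under the levels of Σ1278b, with 31 (replicate 1) and 36 (replicate 2) of 38 below all 4 Σ1278b wild-type arrays after centring. Above them lay 2 and 1 members, respectively. Of all probe sets, 39.8% and 34.0% lay below and 36.7% and 30.2% above on these arrays.

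*HAP4* was higher with 2μ-*MSS11* in S288c on both arrays, at 11.32 and 11.51 against 9.32 and 9.73 (1.89, SE 0.15, adjusted p = 7.92e-05). It passed without any single array (adjusted p up to 0.000954) and not with a spread for each condition (adjusted p = 0.429). *NCA3*, listed here for its reported role in the expression of mitochondrial ATP synthase subunits, had the largest increase of all probe sets tested (8.64, SE 0.39, adjusted p = 6.16e-06) and also passed with a spread for each condition (adjusted p = 0.0403). *CYC7* (1.20, adjusted p = 0.0461) and *ROX1* (0.76, adjusted p = 0.0327) were called only with the shared spread. *COX5B* at −1.27 (adjusted p = 0.103), *AAC3* at 1.93 (adjusted p = 0.0577), *MIG1* at 1.04 (adjusted p = 0.0531) and *HAP1* at −0.04 (adjusted p = 0.917) were not. Of 24 complex IV assembly genes, 2 were higher and 1 lower, of 20 glucose-repressed genes 1 was higher and 5 lower, and of 20 stress genes 1 was higher and 0 lower. Among 148 probe sets for cytosolic ribosomal proteins 40 were higher and 0 lower (median 0.30). Among 66 mitochondrial ribosomal protein genes 2 were higher and 0 lower (median 0.56). The 7 a-specific genes had a median of −4.07, with 0 higher and 3 lower, and *MFA2* stood at 9.56 and 2.16 on the 2 transformant arrays against 10.94 and 11.11 in the wild type. The 4 α-specific genes had a median of −1.01, with 0 higher and 2 lower. Their median level was 13.18 and 14.22 on the transformant arrays against 14.78 and 14.91 in the wild type. The gap between the transformant arrays thus also shows in mating-type genes, in opposite directions for the a-specific and the α-specific list. Its part in the values of the members was not tested.

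**Figure D4:**
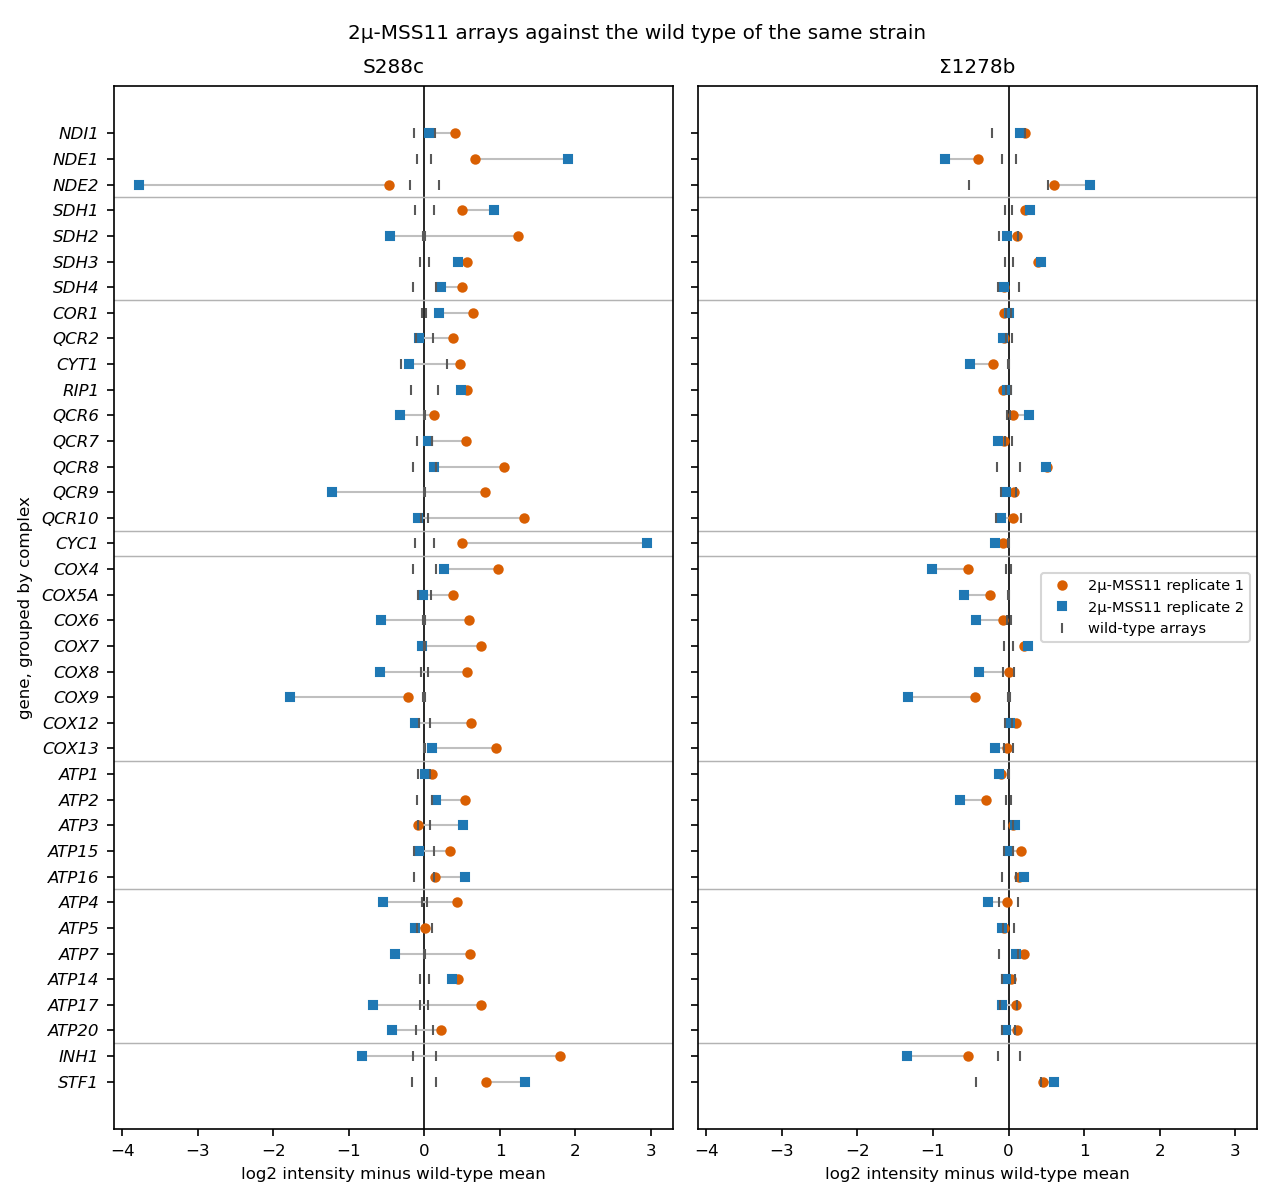
Each row is a member, and the points give the log2 intensity on the 2 arrays with 2μ-*MSS11* minus the mean of the wild type of the same strain, with the wild-type arrays as ticks. In S288c the replicates lie up to 3.30 apart (*NDE2*), while in Σ1278b the widest gap is 0.88 (*COX9*).

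In Σ1278b, 2μ-*MSS11* left most members near the wild type. Only *SDH3* passed the test, at 12.29 and 12.33 against 11.85 and 11.95 (0.41, SE 0.081, adjusted p = 0.0239), so that 1 member was higher and 0 were lower. Of all probe sets 1.05% were higher and 4.17% lower, a split of 58 and 229 that became 71 and 145 after median centring and 90 and 126 after quantile normalization. *SDH3* was called under both of these scalings, but not with a spread for each condition (adjusted p = 0.0531). It was lost without any of 3 single arrays, the adjusted p reaching 0.176 without replicate 2 of the transformant. The median over the members was −0.025 and that over all probe sets −0.03, and the former was 0.02 after centring and 0.03 after quantile normalization. As deposited, 17 members were positive and 21 negative.

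Complex IV held several of the lower values. *COX4* stood at 12.62 and 12.16 against 13.13 and 13.20 (−0.78, SE 0.22, adjusted p = 0.0731), which passed only with a spread for each condition (adjusted p = 0.0387). *COX5A* stood at 13.83 and 13.47 against 14.07 and 14.08 (−0.42, SE 0.14, adjusted p = 0.119), *COX9* at −0.89 (adjusted p = 0.256), and the highest of the complex was *COX7* at 0.23. For the other complexes, the extremes were *INH1* (−0.94, adjusted p = 0.464) and *STF1* (0.53, adjusted p = 0.285) of the inhibitors, *NDE1* (−0.62, adjusted p = 0.291) and *NDE2* (0.84, adjusted p = 0.636), *SDH4* (−0.06), *CYT1* (−0.36) and *QCR8* (0.50), *ATP2* (−0.47, adjusted p = 0.0922) and *ATP16* (0.17), and *ATP4* (−0.14) and *ATP7* (0.15). *CYC1* stood at 14.13 and 14.04 against 14.21 on both wild-type arrays (−0.13, SE 0.57, adjusted p = 0.96).

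Beside the members, *NCA3* was higher in Σ1278b as well (3.12, SE 0.39, adjusted p = 0.00577). *PUF3* was lower (−1.68, adjusted p = 0.0108), and so were *HAP3*, a subunit of the Hap complex (−0.49, adjusted p = 0.0265), and *RCF1*, a factor of respiratory supercomplexes (−0.82, adjusted p = 0.0265). Without single arrays, the adjusted p rose to 0.0516 for *NCA3*, 0.102 for *PUF3*, 0.168 for *HAP3* and 0.237 for *RCF1*. *HAP4* at 0.50 (adjusted p = 0.0919), *CYC7* at 1.402 (adjusted p = 0.052) and *HAP1* at 0.12 (adjusted p = 0.808) did not pass. Of 20 glucose-repressed genes, 3 were higher and 0 lower, among them *MLS1*, a malate synthase (2.95, adjusted p = 0.00735, up to 0.075 without single arrays). Of 20 stress genes 0 passed the test in either direction, and their median was 0.96, with all 20 positive.

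The responses of the strains to 2μ-*MSS11* were compared within the same fit (S288c response minus Σ1278b response). For 5 members the response was higher in S288c and for 0 it was lower, beside 10.3% and 5.64% of all probe sets, a split of 565 and 310 that became 472 and 395 after median centring and 486 and 437 after quantile normalization. The genes were *NDE1* (1.91, SE 0.44, adjusted p = 0.0221), *COX4* (1.39, SE 0.31, adjusted p = 0.0191), *ATP2* (0.81, SE 0.20, adjusted p = 0.0278), *RIP1* (0.57, SE 0.15, adjusted p = 0.0333) and *ATP14* (0.41, SE 0.12, adjusted p = 0.0461). For *NDE1*, *COX4* and *ATP2* the values of the 2 strains had opposite signs, positive in S288c and negative in Σ1278b. *NDE2* had the lowest value (−2.97, SE 1.16, adjusted p = 0.107), and *CYC1* reached 1.85 (SE 0.81, adjusted p = 0.14). With a spread for each condition 0 members passed (adjusted p from 0.281 to 0.649 for the 5 genes). The number of members called also changed with the array left out, and for some arrays no call remained. These counts are not given, because such a fit keeps a single array in a condition. With single arrays left out, the difference ran from 1.29 to 2.525 for *NDE1*, from 1.03 to 1.75 for *COX4* and from 0.39 to 0.75 for *RIP1*. For *CYC1*, which was not called, it ran from 0.62 to 3.08. The cytosolic ribosomal proteins moved with the members here, with 57 of 148 probe sets higher and 0 lower, and their part in the values of the members was not tested. *HAP4* differed between the strains by 1.39 (SE 0.21, adjusted p = 0.00497), but not past the threshold with a spread for each condition (adjusted p = 0.396).

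Deletion of *MSS11* in Σ1278b gave small and mostly negative differences, of which 0 passed the limma test. Of all probe sets 0.0364% were higher and 0.0909% lower, and 3 members and 152 of all probe sets had an unadjusted p under 0.05. Of the 38 members 35 were negative, as were 3384 of all 5498 probe sets. The median was −0.21 over the members and −0.04 over all probe sets. The 2 *mss11* arrays lay below both wild-type arrays for 31 members and above them for 2, compared with 24.5% and 11.2% of all probe sets. The wild type is the same pair of arrays as in the comparison with 2μ-*MSS11*, and its replicate 2 was higher than replicate 1 for 33 of the 38 members. Without that replicate the median was −0.14, and against all 4 Σ1278b wild-type arrays after centring it took the other sign (0.05).

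The replicates of *mss11* differed by at most 0.30 for any member (*STF1*). *SDH1* stood at 12.11 and 12.07 against 12.41 and 12.50 in the wild type (−0.36, SE 0.145, adjusted p = 1, unadjusted p = 0.033). *ATP1* stood at 14.38 and 14.45 against 14.63 and 14.62, and all 8 genes of complex IV lay below both wild-type arrays, from *COX6* (−0.17) to *COX13* (−0.41). Complex III ran from −0.01 (*QCR8*) to −0.32 (*QCR10*), F1 from −0.15 (*ATP2*) to −0.21 (*ATP3*), and the stalk and Fo from −0.02 (*ATP20*) to −0.37 (*ATP4*). *NDE1* went the other way, at 13.69 and 13.73 against 13.30 and 13.11 (0.50, SE 0.31, adjusted p = 1), as did *CYC1* at 14.39 and 14.35 against 14.21 (0.16, SE 0.57). *SDH3*, called with 2μ-*MSS11* in both strains, stood at 11.98 and 11.85 against 11.85 and 11.95, so that the groups overlapped. The lowest difference was that of *NDE2* (−0.68, SE 0.82). *HAP4* stood at 10.32 and 10.21 against 10.76 and 10.54 (−0.38, adjusted p = 1), and 64 of 66 mitochondrial ribosomal protein genes were also negative (median −0.15).

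The arrays titled for *FLO8* were compared with wild type b, which both share as control. On those titled *FLO8* overexpressed, 0 members passed the limma test, and 0 had an unadjusted p under 0.05, against 80 of all probe sets. Of all probe sets 0.0546% were higher and 0.00% lower. The members had a median of 0.03 (−0.0003 over all probe sets) and ran from −0.19 (*NDE1*) to 0.46 (*NDE2*). The inhibitor genes were the highest complex, with *STF1* at 12.86 and 12.77 against 12.44 and 12.45 (0.37, SE 0.26) and *INH1* at 13.28 and 13.45 against 13.08 and 13.24 (0.21, SE 0.65). *RIP1* (−0.06) and *QCR10* (0.17) bounded complex III, *COX5A* (−0.02) and *COX13* (0.15) complex IV, *ATP2* (−0.05) and *ATP15* (0.08) F1, and *ATP5* (−0.01) and *ATP7* (0.10) the stalk and Fo. Of 20 stress genes 19 were positive, with a median of 0.75 and 0 past the test.

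On the arrays titled *flo8* deleted, 0 members passed the limma test as well, and 0 had an unadjusted p under 0.05. Of all probe sets 0.127% were higher and 0.273% lower. The median over members was −0.01 and the range −0.23 (*QCR6*) to 0.45 (*NDE1*). *NDE1* stood at 15.01 and 15.10 against 14.59 and 14.61, and *QCR6*, an acidic subunit of complex III, at 14.15 and 14.27 against 14.39 and 14.49. Both passed with a spread for each condition (adjusted p = 0.00495 and 0.0172), and no other member did. All 8 complex IV genes were negative, from *COX8* (−0.04) to *COX7* (−0.13), and the arrays of 7 of them lay below both wild-type arrays. Over all members the arrays lay below for 13 and above for 10, beside 33.5% and 32.1% of all probe sets. *NDI1* was positive at 0.22, while F1 ran from −0.02 (*ATP16*) to 0.09 (*ATP15*) and the stalk and Fo from −0.03 (*ATP7*) to 0.05 (*ATP4*). *CYC1* stood at 15.27 and 15.33 against 15.20 on both wild-type arrays (0.10, SE 0.57). Of the 10 carrier genes 1 was called, the dicarboxylate carrier *DIC1* (−2.12, adjusted p = 0.0307, up to 0.403 without single arrays).

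**Figure D5:**
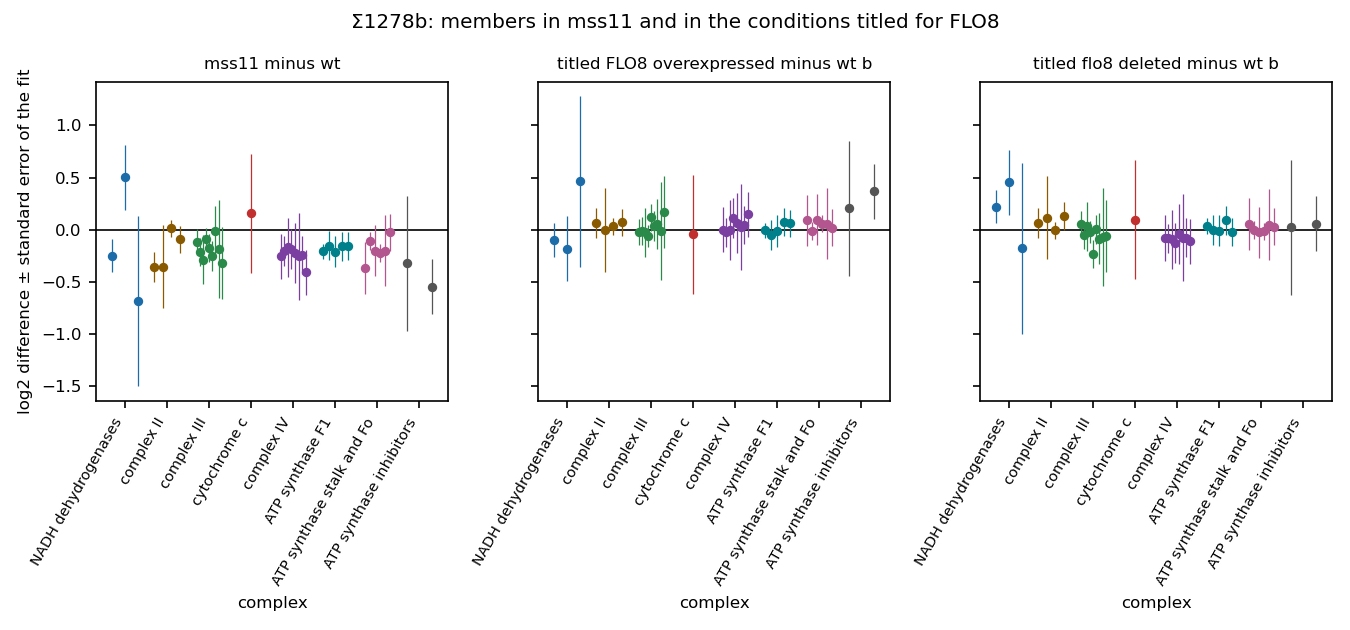
Points give the log2 difference of each member from its wild type with the standard error of the fit, by complex, in Σ1278b *mss11* and under both titles that name *FLO8*. The values in *mss11* lie mostly below 0 (median −0.21) and those of the other conditions lie around 0, and 0 members passed the test in any of them.

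The 2 wild types of Σ1278b carry the same labels, and they differed as well. After median centring, 14 members were lower in wild type b and 0 higher (median −0.40), while 19.9% of all probe sets were lower and 6.60% higher (median −0.10). As deposited, 33 members were higher and 1 lower, with 4401 of all probe sets higher and 159 lower and an overall median of 1.21, and after quantile normalization 0 members were higher and 3 lower, so that the direction depends on the scaling. *NDE2* kept its sign under each of these. It stood at 4.41 and 4.48 in wild type b and at 6.80 and 7.84 in the first wild type (centred difference −4.20, SE 0.81, adjusted p = 0.00374), and it was −2.88 as deposited (adjusted p = 0.00831) and −2.69 with quantile normalization (adjusted p = 0.0704). After centring, *ATP1* was lower at −0.80 (SE 0.081, adjusted p = 4.71e-05), *NDI1* at −0.72 (SE 0.15, adjusted p = 0.00599), and *COX13* at −0.75 (SE 0.22, adjusted p = 0.0296). Of the members, *NDE1* (0.08) and *QCR8* (0.00) had the highest values and were the 2 that were not negative. Of 20 glucose-repressed genes 9 were lower and 0 higher, and of 20 stress genes 6 were lower and 0 higher, with medians of −0.93 and −1.23. *CAT8*, an activator of genes for growth without glucose, differed by −2.93 (adjusted p = 0.000372). The difference of these lists between cultures of the same label moves with that of the members, and its part was not tested.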

How the data were processed

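RNA from 8 conditions of S288c and Σ1278b, on 2 arrays each, was hybridised to Yeast Genome 2.0 arrays. Deposited were linear intensity values, 1 for each probe set of each array. The authors corrected background and normalized between arrays (the methods name RMA, the submitters' processing notes GCRMA, without a version), and whether the 3 sets of arrays were normalized together is not given in the sources used here. The number of arrays limits precision.

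Intensities below 1 were raised to 1, and log2 was taken. Of 10928 probe sets, the 5498 annotated to 1 *S. cerevisiae* gene (5449 genes) entered the test, for which limma 3.58.1 was run in R 4.3.3. The fit had one mean per condition over 16 arrays and empirical Bayes moderation (8 residual and 1.5 prior degrees of freedom), and p-values were adjusted by Benjamini-Hochberg over all tested probe sets (threshold 0.05). Intensities of different probe sets were not ranked against each other. The test was checked on simulated data with an equal spread in all conditions. That check does not cover the wider spread of the S288c arrays with 2μ-*MSS11*.

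The members and all gene lists were chosen with earlier results of these data known. Genes named are, per comparison, up to 6 called members in each direction by size, the extremes of each complex, up to 4 genes of each other list, and *CYC7*, *COX5B*, *AAC3*, *HAP4*, *HAP1*, *ROX1*, *MIG1*, *MSS11* and *FLO8*. Genes named beyond that were named after their values were seen. Alternatives were other scalings, a spread for each condition, the removal of dim probe sets (those not reaching log2 5 on 2 arrays), fits on fewer arrays, a replicate block, each array left out, and wild types of the other set as controls. The other controls for the strain comparison were added after the data were seen.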

Additional observations from a re-analysis of the deposited data

Results flagged for a closer look

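The following differences between the strains' responses to 2μ-*MSS11* (S288c minus Σ1278b) passed the test of the difference itself. They are 5 of 38 members, beside 10.3% of all probe sets that were higher in the same comparison. The number of members called changed with the single array left out, and for some arrays no call remained. *NDE1*, the external NADH dehydrogenase, differed by 1.91 (adjusted p = 0.0221 from limma), with values of 11.11 and 12.35 on the S288c arrays with 2μ-*MSS11*. *COX4*, a complex IV subunit, differed by 1.39 (adjusted p = 0.0191) and *ATP2*, the β subunit of F1, by 0.81 (adjusted p = 0.0278). *RIP1*, the Rieske protein, differed by 0.57 (adjusted p = 0.0333) and *ATP14*, of the stalk, by 0.41 (adjusted p = 0.0461). All 5 were lost with a spread for each condition, where the adjusted p was 0.375 for *COX4* and 0.281 for *NDE1*.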

How the results depend on the processing

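Between the wild types of the strains, 35 members were lower and 1 higher in the main fit, beside 34.3% and 28.1% of all probe sets. Most members were called under every alternative run, though the calls of *NDE2*, *SDH3* and *ATP17*, among others, were lost in some. Strain and set of arrays cannot be told apart in any of them. The calls with 2μ-*MSS11* in S288c fell from 7 to 0 with a spread for each condition and to 0 in a fit on the compared arrays alone, and were 2 to 27 with single arrays left out. In Σ1278b with 2μ-*MSS11*, the 1 call became 0 in a fit on the compared arrays and 0 with the replicate block, and the count varied with the single array left out. With a spread for each condition the count stayed at 1 but the gene was *COX4* and no longer *SDH3*. The responses of the strains differed for 5 members, 0 with a spread for each condition, 0 in a fit on the compared arrays, 2 with the replicate block and 0 to 25 with single arrays left out. Of those titled *flo8* deleted, 2 members were called with a spread for each condition. For *mss11* and the arrays titled *FLO8* overexpressed, 0 members were called under every alternative. Between the Σ1278b wild types, 14 members became 34 as deposited, 3 with quantile normalization, 23 in a fit on the compared arrays and 2 to 11 with single arrays left out. As deposited, 13 of the 14 members called there took the other sign, namely *NDI1* (0.60), *SDH4* (0.79), *COR1* (0.77), *QCR2* (0.90), *QCR7* (0.78), *COX5A* (0.69), *COX13* (0.57), *ATP1* (0.51), *ATP2* (0.81), *ATP15* (0.67), *ATP16* (0.84), *ATP5* (0.98) and *ATP14* (1.05), since the arrays of wild type b are brighter as a whole. Deviations of same-numbered arrays had correlations of 0.148 to 0.263 within the set with wild type b and of −0.413 to 0.092 in the other sets. With 2 numbers per condition this does not settle whether the numbers pair the samples, and the replicate block changed no other count by over 1.5 times. The cause of the other changes was not tested.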
